A study of Mus musculus with 55 samples.

Results

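Cortex of mice kept on PLX5622 was compared 30 days after a diffuse traumatic brain injury (TBI) and without injury. The 13 mice of this comparison, 7 at 30 days and 6 naive, are all mice with these diet and injury labels among the 55 mice of the study. PLX5622 blocks CSF1R, the receptor through which microglia receive their survival signal, and was mixed into AIN-76A chow at 1200 mg/kg. All mice were male C57BL/6 animals, 8 to 10 weeks old. The 7 injured mice had eaten the PLX5622 chow for 14 days before TBI and went on eating it until tissue was taken at 30 days, whereas the 6 naive mice ate the same chow without TBI. Vehicle mice, 5 at 30 days and 7 naive, ate the chow without the drug, and PLX5622 mice taken at 1 day (8 mice) and 7 days (9 mice) after TBI are used for the time course. Mouse 695, naive by its injury label and on vehicle, has 7 d in its title and was kept as naive. How long the naive PLX5622 mice ate the diet is not stated in the sources used here, so injury and time on the diet cannot be told apart.

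Levels of 799 genes were read on the nanoString nCounter, an assay that counts a fluorescent barcode for each captured transcript, and are given as normalised counts. Total counts ran from 342217 to 858965 in the 30-day mice and from 230246 to 936463 in the naive mice, and 1 count was worth between 0.615 and 2.77 normalised counts. Per the labels' protocols, the dissected cortex held hypertrophied and rod-shaped microglia, located on adjacent thin sections by CD11b staining. Itgam encodes CD11b, so its values describe the chosen regions and are counted but not read as a finding. Levels of other microglial genes may also depend on this choice of regions, which was not tested. In tissue RNA, fewer cells of a type and less RNA per cell cannot be told apart. Fold changes are log2 differences of value + 1 with their standard error (SE), from 1 limma fit over all 55 mice with the nCounter cartridge as covariate. A gene was called at a Benjamini-Hochberg adjusted p under 0.05 over the 799 genes. Each of the 5 cartridges held mice of both groups.

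Microglia are the resident macrophages of the brain. They depend on CSF1R, sense nucleotides and fractalkine through P2RY12 and CX3CR1, and make most of the brain's C1q, the 3-chain protein that starts the classical complement pathway. When CSF1R is blocked most microglia are lost, and the population regrows from survivors once the drug is withdrawn. Astrocytes respond to injury by raising GFAP, their intermediate filament.

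Injured PLX5622 mice had 18 higher and 0 (0.0%) lower genes at 30 days relative to uninjured PLX5622 mice, which is 2.25% of the 799 genes (limma). At an unadjusted p under 0.05, 86 were higher and 2 lower (11.0%). The called genes included Cx3cr1, Itgam, P2ry12, Csf1r, Cd33, C1qa, C1qb, C1qc, C3ar1, Cd68, Trem2, Tyrobp, Ncf1, Slc11a1, Gfap, Aqp4 and Clu. Of all 18 called, 15 belong to the lists of microglial, complement, phagocyte and innate-receptor genes. These lists hold 13, 7, 11 and 20 of the 799 genes, and were chosen with earlier results of these data known. On recovered whole counts edgeR called 17 genes, all higher, and DESeq2 called 18 higher and 1 lower, Polr2h, a subunit of the RNA polymerases (log2 fold change -0.38). Each of these tools shared 16 calls with limma. The median log2 fold change of all genes was 0.11, and 599 of 799 (75.0%) lay above 0. Centring each mouse on its median brought that median to -0.01 and left 14 calls, with C3ar1, Ncf1 and Slc11a1 among those lost.

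Of 18 called genes, 12 have a promoter in the RefSeq tables for build GRCm38.p6. The 6 with the smallest p-values are printed here, since these genes moved together and lead the comparison. Each sequence is the 250 bases upstream of the gene's start, 5′ to 3′ in the gene's own orientation. Capitals mark GAGGAA or its reverse complement TTCCTC, the core of the sequence bound by PU.1 (encoded by Spi1), a transcription factor of the myeloid lineage.
Cx3cr1 (chr9:120068297-120068546, minus strand): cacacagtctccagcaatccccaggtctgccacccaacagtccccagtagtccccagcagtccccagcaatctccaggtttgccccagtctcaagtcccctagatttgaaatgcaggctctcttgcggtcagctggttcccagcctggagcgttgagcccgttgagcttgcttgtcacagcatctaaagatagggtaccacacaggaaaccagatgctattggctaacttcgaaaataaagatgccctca
C1qb (chr4:136886201-136886450, minus strand): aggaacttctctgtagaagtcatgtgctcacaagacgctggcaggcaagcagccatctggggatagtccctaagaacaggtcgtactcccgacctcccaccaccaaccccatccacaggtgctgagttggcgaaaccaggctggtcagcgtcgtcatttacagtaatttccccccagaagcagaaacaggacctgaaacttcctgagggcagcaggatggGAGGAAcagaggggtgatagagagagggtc
Itgam (chr7:128062390-128062639, plus strand): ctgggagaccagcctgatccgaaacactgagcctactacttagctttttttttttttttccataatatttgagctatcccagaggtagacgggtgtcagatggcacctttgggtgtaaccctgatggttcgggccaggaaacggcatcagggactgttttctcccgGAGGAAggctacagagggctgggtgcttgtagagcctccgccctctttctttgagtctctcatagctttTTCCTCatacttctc
Cd68 (chr11:69666171-69666420, minus strand): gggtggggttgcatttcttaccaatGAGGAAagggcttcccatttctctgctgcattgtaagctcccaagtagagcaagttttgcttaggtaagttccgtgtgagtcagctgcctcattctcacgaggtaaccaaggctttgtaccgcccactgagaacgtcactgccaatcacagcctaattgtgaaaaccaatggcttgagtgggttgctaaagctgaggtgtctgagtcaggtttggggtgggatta
P2ry12 (chr3:59262986-59263235, minus strand): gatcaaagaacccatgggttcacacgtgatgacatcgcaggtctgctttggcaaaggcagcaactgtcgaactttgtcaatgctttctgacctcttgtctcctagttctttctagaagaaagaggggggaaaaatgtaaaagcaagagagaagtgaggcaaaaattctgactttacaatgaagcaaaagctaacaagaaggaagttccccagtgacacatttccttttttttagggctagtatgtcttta
C1qc (chr4:136892915-136893164, minus strand): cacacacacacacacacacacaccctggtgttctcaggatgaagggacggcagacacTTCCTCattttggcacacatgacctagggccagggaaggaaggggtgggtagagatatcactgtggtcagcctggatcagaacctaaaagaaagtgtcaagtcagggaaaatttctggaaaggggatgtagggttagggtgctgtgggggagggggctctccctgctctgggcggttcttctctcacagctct

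This motif was found on either strand in 7 of the 12 promoters matched, against 23.3% of 32851 mouse promoter windows of the same length. Cx3cr1 and P2ry12 have no match in the window shown, and Itgam has 2. A match describes the letters only. Spi1 itself was not called (0.85 ± 0.34 on the log2 scale, adjusted p = 0.246).

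Cx3cr1, the fractalkine receptor of microglia, had the smallest p-value. Its lowest, median and highest values were 9.08, 27.6 and 51.2 normalised counts in the 30-day mice, against 0.75, 3.84 and 6.27 in the naive mice. Every 30-day mouse exceeded every naive mouse. Cx3cr1 rose by 2.48 ± 0.34 on the log2 scale (adjusted p = 1.5e-06, limma), and the ratio of group means was 7.20. Only 2 of the 799 genes (0.25%) separated the groups completely in this way. The other was Nfe2l2, which encodes a transcription factor of the oxidative stress response and was not called (0.56 ± 0.19, adjusted p = 0.133). Nfe2l2 ran from 42.9 to 72.0 in the 30-day mice and from 30.6 to 42.2 in the naive mice.

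**Figure D1:**
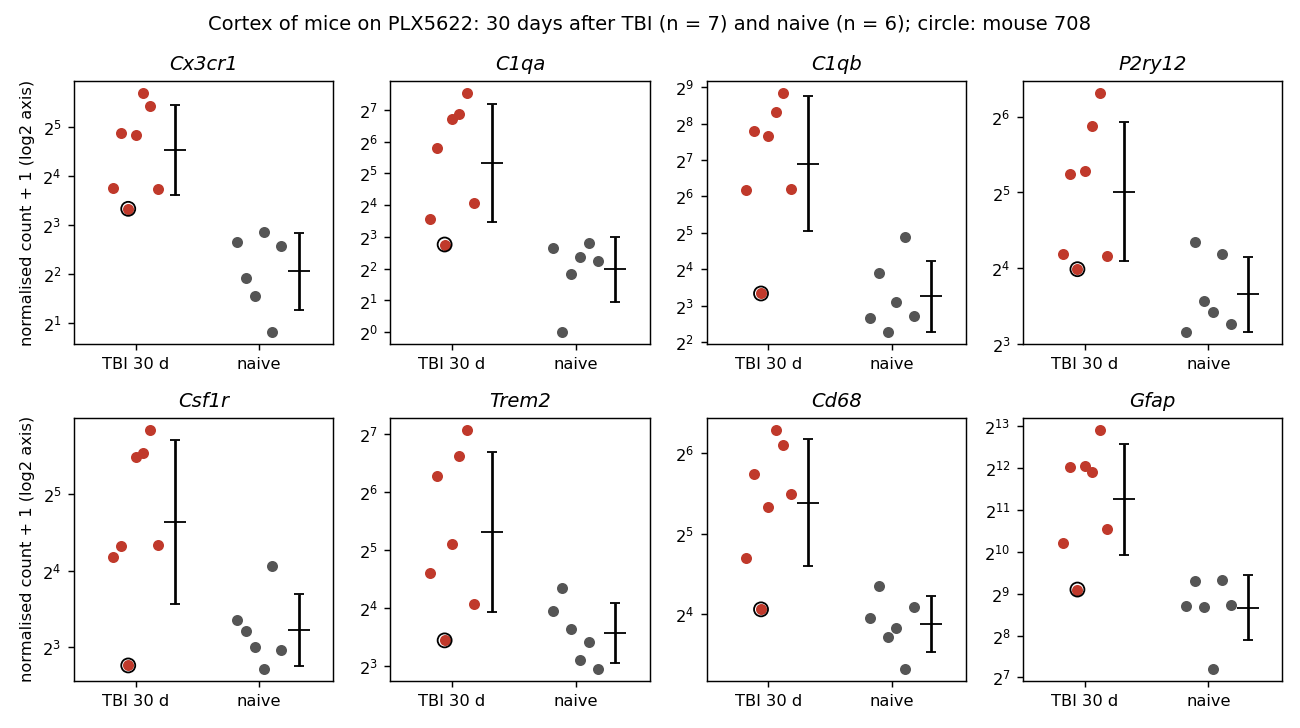
Normalised count + 1 on a log2 axis for 8 genes in PLX5622 mice, 30 days after TBI (red, n = 7) and naive (grey, n = 6), 1 point per mouse, with the mean ± SD of the log2 values beside the points. The circled mouse 708 is the lowest 30-day mouse in each panel. Groups are fully separated for Cx3cr1, whereas in every other panel mouse 708 lies within the naive range. For Csf1r and Trem2 its values are 5.78 and 9.91 normalised counts.

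Among the other microglial identity genes, P2ry12, the purinergic receptor that guides microglial processes, rose by 1.24 ± 0.27 (adjusted p = 0.0029, limma). Its lowest, median and highest values were 14.9, 36.9 and 78.5 in the 30-day mice, against 7.91, 10.3 and 19.4 in the naive mice. All 7 injured mice lay above the naive median, but only 4 exceeded the highest naive mouse. Csf1r, the receptor that PLX5622 blocks, had values of 5.78, 19.2 and 56.3 in the 30-day mice and 5.57, 7.66 and 15.7 in the naive mice (lowest, median, highest). The rise of 1.44 ± 0.37 (adjusted p = 0.0205) came with 6 of 7 injured mice above every naive mouse. Cd33, an inhibitory sialic acid-binding receptor, rose by 1.07 ± 0.27 (adjusted p = 0.0186), with a range of 5.78 to 21.4 in the 30-day mice and of 4.30 to 8.30 in the naive mice.

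Itgam stood at 4.13, 34.7 and 89.6 in the 30-day mice and at 2.77, 5.28 and 7.91 in the naive mice (lowest, median, highest).

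In the list of microglial lineage and homeostatic genes, 6 of 13 measured members were higher and 7 were not called, with a list median of 0.95 against 0.11 for all genes. Tmem119, a membrane protein specific to microglia within the brain, was not called (0.32 ± 0.18, adjusted p = 0.532). It spanned 10.7 to 27.0 in the 30-day mice and 11.1 to 20.2 in the naive mice. Aif1, which encodes the microglial marker IBA1, was not called either (0.21 ± 0.25, adjusted p = 0.839). Aif1 had a median between 11.4 and 17.2 in every one of the 4 PLX5622 groups and of 16.3 in naive vehicle mice. Fcrls, a microglial Fc receptor-like gene, had values of 6.61, 38.1 and 83.1 in the 30-day mice and 4.46, 9.53 and 12.0 in the naive mice (lowest, median, highest), and missed the threshold (1.47 ± 0.48, adjusted p = 0.117).

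The 3 chains of C1q gave the largest increases with Gfap. C1qb had values of 9.08, 199 and 457 in the 30-day mice, against 3.82, 6.60 and 28.5 in the naive mice (lowest, median, highest). It rose by 3.65 ± 0.56 (adjusted p = 7.4e-06, limma), a 17.9-fold ratio of group means. C1qa had values of 5.78, 54.8 and 184 in the 30-day mice and 0, 3.93 and 6.00 in the naive mice, a rise of 3.44 ± 0.51 (adjusted p = 6.3e-06). C1qc rose by 2.80 ± 0.61 (adjusted p = 0.00316), with 1.65, 98.9 and 279 in the 30-day mice and 2.09, 7.02 and 13.5 in the naive mice. For each chain 6 of 7 injured mice lay above every naive mouse, and the exception was mouse 708.

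Of 7 complement genes measured, 4 were higher and 3 were not called, with a median log2 fold change of 1.63 against 0.11 for all genes. The fourth was C3ar1, the receptor for the C3a fragment, which rose by 1.63 ± 0.47 (adjusted p = 0.0458) and had medians of 27.1 in the 30-day mice and 4.35 in the naive mice. C3ar1 was lost in 10 of 13 fits that left out 1 mouse (adjusted p from 0.00534 to 0.185). C3, the component on which all complement routes converge, gave 0.97 ± 0.44 (adjusted p = 0.364). C6, part of the terminal pore, gave 0.59 ± 0.40 (adjusted p = 0.689).

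Cd68, a lysosomal membrane protein of phagocytes, rose by 1.53 ± 0.32 (adjusted p = 0.0029, limma), with 15.7, 44.0 and 77.3 in the 30-day mice and 8.99, 13.9 and 19.4 in the naive mice (lowest, median, highest). Trem2, a lipid-sensing receptor, rose by 1.65 ± 0.37 (adjusted p = 0.0039), with 9.91, 33.4 and 133 in the 30-day mice and 6.76, 10.6 and 19.4 in the naive mice. Tyrobp, the adaptor through which TREM2 signals, rose by 1.38 ± 0.34 (adjusted p = 0.0166) and ranged from 6.61 to 43.4 in the 30-day mice and from 2.64 to 16.6 in the naive mice. For Tyrobp only 3 of 7 injured mice exceeded the highest naive mouse.

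These were the 3 called among 11 phagocyte receptor and lysosome genes, whose median was 0.40. General lysosomal genes of the list were not called, among them Lamp1 (0.28) and Grn (0.50). Among 20 innate sensing and activation genes, with a median of 0.47, the calls were Ncf1, a subunit of the phagocyte oxidase (1.17 ± 0.30, adjusted p = 0.0211), and Slc11a1, a phagosomal metal transporter (1.44 ± 0.39, adjusted p = 0.0246). Both were lost on recovered counts, with adjusted p over all alternatives from 0.0166 to 0.882 for Ncf1 and from 0.0261 to 1 for Slc11a1. Slc11a1 stayed at or under 12.9 normalised counts in all 13 mice. The inflammatory cytokines Tnf (0.08), Il1a (-0.08) and Il1b (0.50) were not called.

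**Figure D2:**
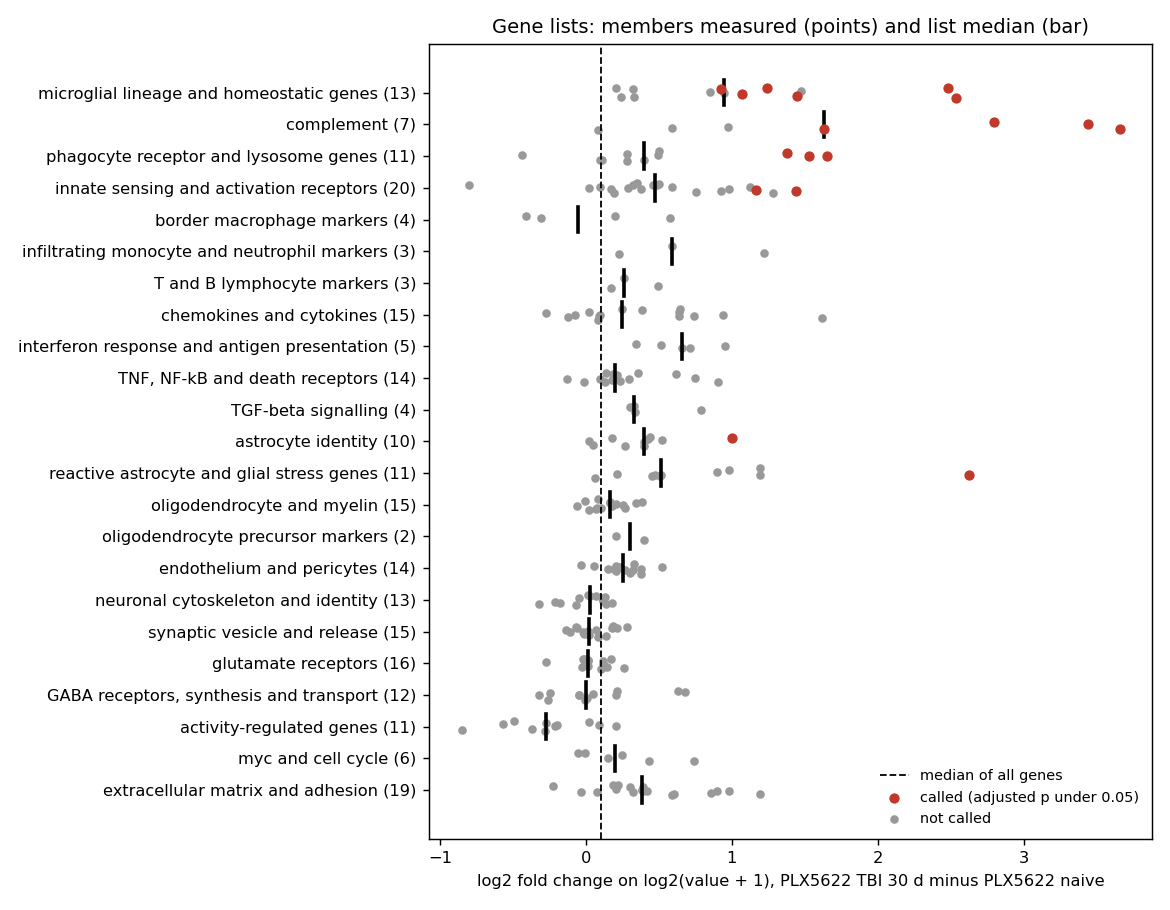
Log2 fold change of each measured member of 23 gene lists (points, number of members in brackets), 30 days after TBI minus naive on PLX5622, with called members in red, list medians as bars and the median of all genes as a dashed line. Called members lie in the microglial, complement, phagocyte, innate and astrocyte lists, while neuronal, synaptic, glutamate and GABA lists centre near 0.

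Gfap, the astrocyte filament, rose by 2.62 ± 0.57 (adjusted p = 0.00316, limma), a 7.42-fold ratio of group means. Its lowest, median and highest values were 547, 3825 and 7719 normalised counts in the 30-day mice, against 146, 423 and 645 in the naive mice. All 7 injured mice lay above the naive median and 6 above the highest naive mouse. Within RNA extraction batches 1, 2 and 3 the difference was 2.11, 1.97 and 3.09. Aqp4, the water channel of astrocyte endfeet, rose by 1.00 ± 0.27 (adjusted p = 0.0246) and ranged from 272 to 1495 in the 30-day mice and from 223 to 397 in the naive mice. Clu, a secreted chaperone made by astrocytes that falls outside the rule for named genes and was chosen after its values were seen, rose by 0.63 ± 0.17 (adjusted p = 0.0303), with 3267 to 9091 in the 30-day mice and 2566 to 4436 in the naive mice.

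Aqp4 and Clu were each called in only 5 and 4 of the 13 fits that left out 1 mouse (adjusted p up to 0.137 and 0.149). Of 10 astrocyte identity genes, 1 was called (Aqp4) and the median was 0.40. Slc1a2, the main glutamate transporter of astrocytes, gave 0.18 ± 0.18 (adjusted p = 0.806). Gja1, a gap junction protein, gave 0.52 and Aldh1l1, a pan-astrocyte enzyme, 0.44. Of 11 reactive astrocyte and glial stress genes, with a median of 0.52, Gfap alone was called. The next in size were Cd44, a hyaluronan receptor, at 1.19 (adjusted p = 0.195) and Hmox1, which breaks down heme, also at 1.19 (adjusted p = 0.127).

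No member was called in the remaining lists. The 13 neuronal cytoskeleton and identity genes had a median of 0.03, the 15 synaptic vesicle genes 0.02, the 16 glutamate receptor genes 0.01 and the 12 GABA genes 0.00, all below the 0.11 of all genes. The 11 activity-regulated genes had a median of -0.27, the lowest of the 23 lists, and 8 of them lay below 0. A low median of this list was not particular to these mice. Against naive mice of the same diet it was -0.50 on vehicle at 30 days and -0.33 on PLX5622 at 7 days. Arc, an immediate-early gene of synapses, gave -0.50 (adjusted p = 0.806) and spanned 195 to 1394 in the 30-day mice and 346 to 2308 in the naive mice. Oligodendrocyte and myelin genes (15 measured) had a median of 0.16, and Mbp, a main myelin protein, gave 0.08. The medians were 0.30 for 2 oligodendrocyte precursor markers, 0.25 for 14 endothelial and pericyte genes and 0.39 for 19 extracellular matrix genes. Chemokines and cytokines (15 genes) had a median of 0.25, interferon and antigen presentation genes (5) 0.66, TNF and NF-kB genes (14) 0.20, TGF-beta genes (4) 0.33, and Myc and cell cycle genes (6) 0.20.

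The 7 injured mice differed widely among themselves. Mouse 708 was the lowest 30-day mouse in 18 of 18 called genes, against 23.7% of all genes. Mouse 727 was the highest in 13 of the 18 (14.3% of all genes). Mice 721 and 727 were each among the 4 highest in 17 of the 18 called genes, mouse 700 in 15 and mouse 715 in 14. Over all genes these mice were among the 4 highest in 71.8% (mouse 721), 57.6% (mouse 727), 60.1% (mouse 700) and 66.1% (mouse 715). For C1qb the values were 457 in mouse 727, 318 in mouse 721, 219 in mouse 700 and 199 in mouse 715, followed by 72.2 in mouse 733, 71.8 in mouse 685 and 9.08 in mouse 708. For Gfap the order was 7719 in mouse 727, 4259 in mouse 715, 4151 in mouse 700 and 3825 in mouse 721, then 1497, 1189 and 547 in mice 733, 685 and 708. The same 4 mice were thus highest in a complement gene and in the astrocyte filament gene, with mouse 708 lowest in both.

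**Figure D3:**
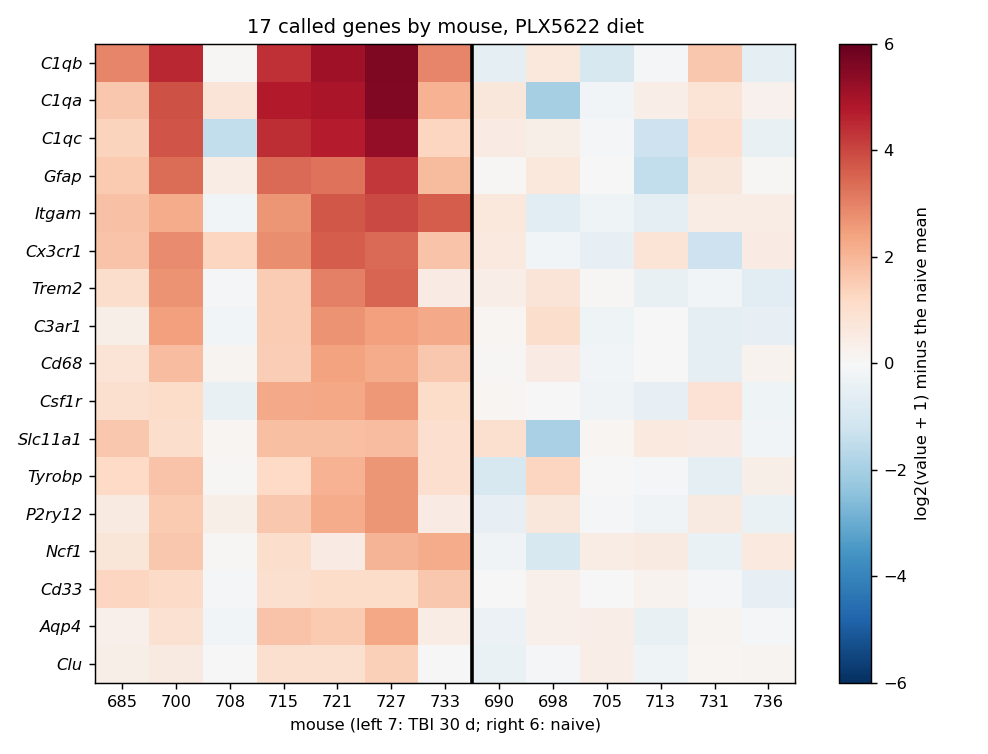
Log2(value + 1) minus the naive mean for 17 of the 18 called genes (rows) in 13 PLX5622 mice (columns, 30 days after TBI left of the line and naive right of it), red for higher and blue for lower. Mice 700, 715, 721 and 727 are red in nearly all rows, and mouse 708 has the lowest 30-day value in every row.

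Mouse 708 had 611292 total counts, above the group median of 505694, and came from cartridge 2 and extraction batch 2. Without it 23 genes were called, with all 18 kept and Ccl3, Dnm2, Fcrls, Spi1 and Tgfb1 added, and C1qb rose by 4.19 ± 0.50 (adjusted p = 4.6e-08, limma). Ccl3 is a macrophage chemokine, Dnm2 a dynamin of membrane scission and Tgfb1 a cytokine that maintains microglial identity. Without mouse 727, 10 genes were called, and without any one of mice 715 and 721 and naive mice 690 and 731, 12 were. The 9 genes called in all 13 of these fits were Cx3cr1, C1qa, C1qb, C1qc, Itgam, Cd68, P2ry12, Trem2 and Gfap. Of these, only C1qb, Itgam and Gfap were also called under every other setting tried. C1qc and Trem2 lost their calls when only the mice compared were fitted. Cx3cr1, C1qa, Cd68, P2ry12 and Trem2 lost theirs when low values were set to a floor.

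Mouse 733 stood apart in another way. It had the highest Ccr2, the receptor of blood monocytes, at 99.3 normalised counts, while the other 30-day mice ran from 4.76 to 14.8 and naive mice from 2.25 to 9.84. H2-Eb1, an MHC class II chain, stood at 104 there and at 12.0 to 39.0 in the other 30-day mice. Its P2ry12 (16.9), Trem2 (15.8) and C1qa (15.8) were in the lower part of the 30-day range, whereas Itgam was 70.0 and Ncf1 32.7. In mouse 733 the oligodendrocyte markers Mbp, Mog and Mag summed to 3712, against 7992 to 10853 in the other 30-day mice. Naive mice had sums of 4148 to 12621 for these markers. The 3 monocyte and neutrophil markers measured of 14 listed (Ccr2, Mmp9 and Itgal) summed to 136.5 in mouse 733, to 19.1 to 36.0 in the other 30-day mice and to 9.74 to 28.0 in the naive mice.

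None of these markers was called, and the list median was 0.59. Without mouse 733, 19 genes were called, Ncf1 (adjusted p = 0.0776) and C3ar1 (adjusted p = 0.125) were lost, and C1qb rose by 3.80 ± 0.58. The 4 border macrophage markers measured (Mrc1, Cd163, Siglec1, Stab1) summed to 32.2 to 47.8 in the 30-day mice and 30.0 to 52.6 in the naive mice, with a list median of -0.06. The 3 lymphocyte markers (Cd4, Cd8a, Prf1) summed to 19.8 to 32.8 and 14.6 to 24.9 in those groups, with a median of 0.26. The 8 microglial markers summed to 198 to 914 in the 30-day mice and 143 to 277 in the naive mice. The part of these other cells in the result was not tested.

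Low levels limit the comparison. In naive mice 14 of the 18 called genes had a mean under 16 normalised counts, as did 177 of all 799 genes, against 2 of the 18 in the 30-day mice. With every value under 16 set to 16, 4 genes were called (C1qb, C1qc, Gfap and Itgam).

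The time course on PLX5622 places the 30-day levels. Median Cx3cr1 was 3.84 in naive mice, 6.03 at 1 day, 15.1 at 7 days and 27.6 at 30 days. Median C1qb was 6.60, 12.5, 38.4 and 199 over the same groups, and median P2ry12 was 10.3, 15.8, 22.1 and 36.9. For Trem2 the medians were 10.6, 12.6, 16.3 and 33.4. Gfap had a different course, with 423 in naive mice, 3259.5 at 1 day, 2205 at 7 days and 3825 at 30 days. Cd68 stood at 13.9, 36.6, 21.0 and 44.0.

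**Figure D4:**
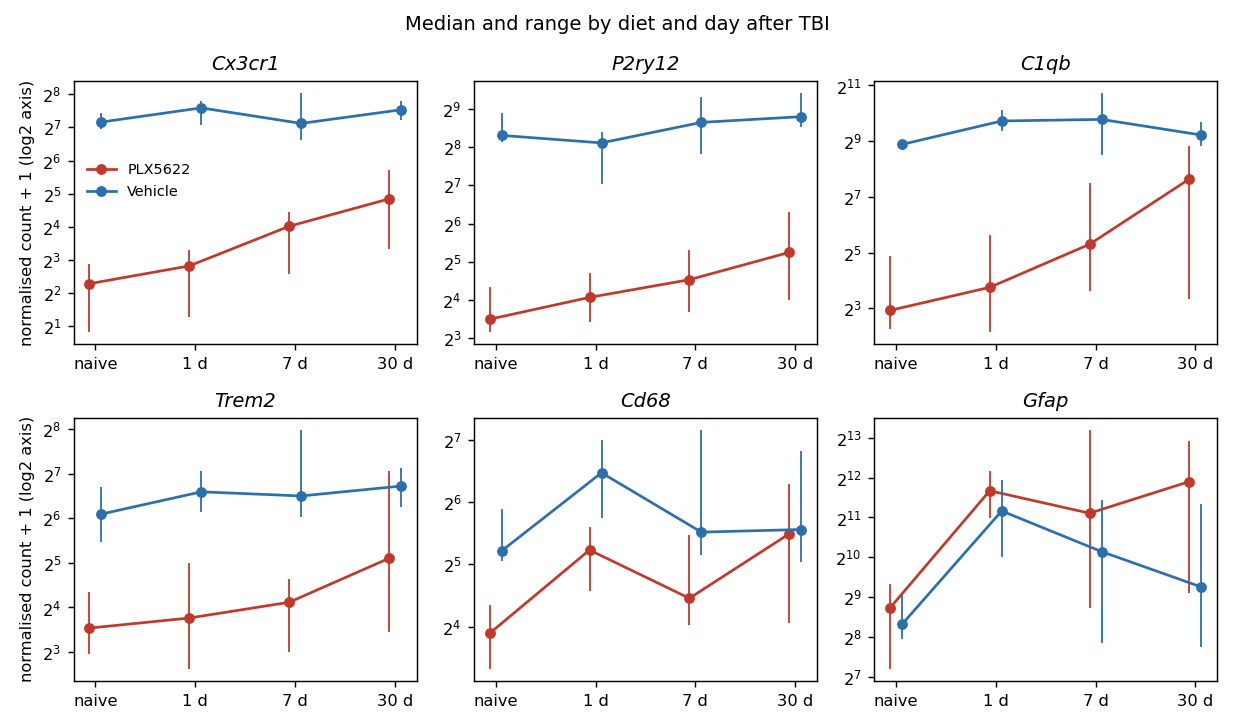
Median (points) and range (bars) of normalised count + 1 on a log2 axis in naive mice and 1, 7 and 30 days after TBI, on PLX5622 (red) and vehicle (blue). On PLX5622 the medians of Cx3cr1, P2ry12, C1qb and Trem2 are ordered by day, while Gfap is already high at 1 day.

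Between 30 and 7 days on PLX5622, limma called 0 of 799 genes (0.0%). At an unadjusted p under 0.05 the counts were 24 higher and 9 lower (4.13%). edgeR and DESeq2 on recovered counts each called 1 gene, Trem2, with an adjusted p of 0.0275 in edgeR (1.55 on the log2 scale) and of 0.00394 in DESeq2. In limma Trem2 gave 1.14 ± 0.33 (adjusted p = 0.375), Cx3cr1 0.81 ± 0.31 and C1qb 1.26 ± 0.50 (adjusted p = 0.805 for both), and Gfap 0.07 ± 0.52. Without mouse 708, 2 genes were called, and without the 7-day mouse 734, 1 gene. At 7 days 12 genes were higher than in naive mice (1.5% called), among them Cx3cr1 (1.67 ± 0.32), C1qa (2.30 ± 0.48), C1qb (2.39 ± 0.52), Gfap (2.55 ± 0.54) and Aqp4 (1.15 ± 0.25). The 7-day and 30-day changes share the naive mice. Trem2 (0.51, adjusted p = 0.613) and Csf1r (0.71, adjusted p = 0.414) were not called at 7 days.

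Against vehicle mice at the same day, microglial genes were lower on PLX5622. At 30 days 20 genes were lower and 1 higher on PLX5622 than on vehicle (2.63% called by limma, of which 2.5% lower and 0.125% higher). An unadjusted p under 0.05 was reached by 53 genes lower on PLX5622 and 14 higher (8.39%). P2ry12 had values of 14.9, 36.9 and 78.5 on PLX5622, against 366, 443 and 681 on vehicle (lowest, median, highest), a log2 fold change of -3.80 ± 0.28 (adjusted p = 1.3e-15). Csf1r differed by -3.28 ± 0.39 (adjusted p = 1.1e-08) and Cx3cr1 by -2.95 ± 0.36 (adjusted p = 1.1e-08), again with no overlap between the diets. The mean of P2ry12 at 30 days was 7.86% of that on vehicle, where the naive mice of both diets gave 3.49%. For Cx3cr1 these shares were 14.3% at 30 days and 2.46% in naive mice, and for C1qb 30.3% at 30 days and 2.30% in naive mice.

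Tmem119 differed from vehicle by -1.89 ± 0.19 (adjusted p = 8.3e-11, limma), with a mean at 26.4% of vehicle at 30 days and 20.3% in naive mice. C1qa, C1qb and C1qc differed by -2.26, -2.30 and -2.63, and for each of them the highest PLX5622 mice overlapped the vehicle range. All 3 calls were lost when only the mice compared were fitted (adjusted p = 0.149 for C1qa, 0.264 for C1qb and 0.386 for C1qc), and that of C1qc also in DESeq2. Cd68 (-0.41 ± 0.34, adjusted p = 0.836) and Tyrobp (-0.86 ± 0.36, adjusted p = 0.37) were not called at 30 days, and their means were 74.7% and 59.8% of vehicle. A p that misses the threshold does not show that these levels were alike. Trem2 was called (-1.35 ± 0.39, adjusted p = 0.0401) but lost in 6 of 13 other settings (adjusted p from 0.0168 to 0.57) and in 8 of 12 fits that left out 1 mouse. Of 13 microglial genes 9 were lower, with a median of -1.76 against -0.10 for all genes.

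Other genes lower on PLX5622 included Itgam (-2.57), Fcrls (-1.88), Cd33 (-1.59), Ncf1 (-1.41) and the costimulatory ligand Cd86 (-1.47). Tgfb1 (-1.23) and its receptor Tgfbr1 (-0.96), the scavenger receptor Stab1 (-1.09), the ribonuclease Ang (-1.16) and the interleukin 6 receptor Il6ra (-0.96) were also lower. The call of Il6ra was lost in 5 of 13 other settings, edgeR and DESeq2 among them (adjusted p from 0.024 to 0.245), and in 6 of 12 fits that left out 1 mouse. Fcrls was lost in 5 of those 12. Without vehicle mouse 707, 13 genes were called in all. Gfap was the 1 gene higher (2.15 ± 0.60, adjusted p = 0.0321), with 547, 3825 and 7719 on PLX5622 and 213, 610.4 and 2574 on vehicle (lowest, median, highest). This call was lost in 6 of 13 other settings (adjusted p from 0.0129 to 0.0704), among them extraction batch as covariate and edgeR, and in 8 of 12 fits that left out 1 mouse.

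Whether the change at 30 days differed between the diets was tested as an interaction. On vehicle, limma called 0 of 799 genes at 30 days against naive (0.0%). At an unadjusted p under 0.05 the counts there were 20 higher and 9 lower (3.63%). Cx3cr1 changed by 2.48 ± 0.34 on PLX5622 and 0.30 ± 0.36 on vehicle, C1qa by 3.44 ± 0.51 and 0.39 ± 0.55, and C1qb by 3.65 ± 0.56 and 0.36 ± 0.60. The differences of 2.18 ± 0.49 for Cx3cr1 (adjusted p = 0.0398), 3.05 ± 0.74 for C1qa (adjusted p = 0.043) and 3.29 ± 0.81 for C1qb (adjusted p = 0.043) were the 3 that limma called (0.375% of genes). At an unadjusted p under 0.05 there were 26, all higher (3.25%). edgeR and DESeq2 called 5, adding C1qc and Itgam.

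These calls changed with the setting. Over 13 other settings Cx3cr1 was called in 9 (adjusted p from 0.0003 to 1), and C1qa and C1qb in 6 each (adjusted p from 0.00187 to 1 and from 0.00187 to 0.94). With values under 16 set to 16, 0 were called. Leaving out 1 mouse gave 0 calls for 14 of the 25 mice in turn (PLX5622 mice 700, 715, 721, 727, 705 and 731, and vehicle mice 684, 722, 728, 695, 706, 714, 737 and 742), 1 call for mice 713, 736, 691 and 732, and 5 calls without mouse 708. Gfap changed by 2.62 ± 0.57 on PLX5622 and 0.76 ± 0.62 on vehicle, and its interaction was not called (1.86 ± 0.83, adjusted p = 0.994). Nor was that of P2ry12 (1.02 ± 0.39, adjusted p = 0.768), Csf1r (1.09 ± 0.54, adjusted p = 0.994) or Trem2 (1.22 ± 0.53, adjusted p = 0.994).

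**Figure D5:**
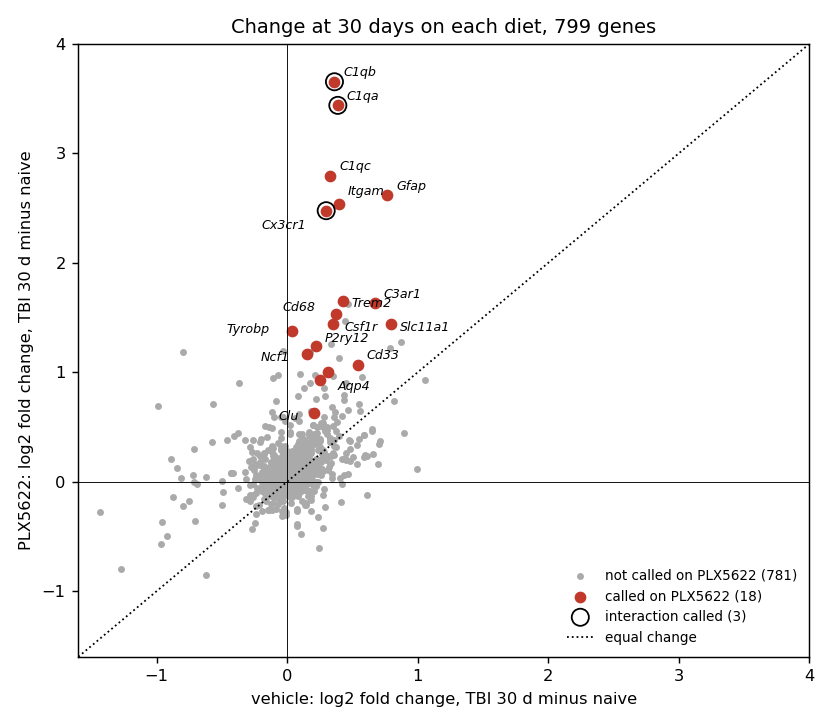
Log2 fold change 30 days after TBI minus naive on PLX5622 (vertical axis) and on vehicle (horizontal axis) for 799 genes, with the 18 genes called on PLX5622 in red and the 3 with a called interaction circled. C1qa, C1qb and Cx3cr1 lie between 2.48 and 3.65 on PLX5622 and between 0.30 and 0.39 on vehicle.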

How the data were processed

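Cortical RNA of 55 mice in 8 diet and injury groups was measured on nanoString nCounter cartridges. The deposited values are a signal normalised by the authors, and each mouse's values were whole multiples of 1 step, so whole counts could be recovered for all values (tolerance 0.02 counts). The submitters' processing notes name DESeq2, with no version, and the sources used here state no background step. Log2(value + 1) was fitted with limma 3.58.1 (R 4.3.3, lmFit and eBayes with a trend) over the 8 group means with cartridge as covariate, in all 55 mice. Tests were two-sided with Benjamini-Hochberg adjustment over 799 genes at 0.05, and the procedure was tested on simulated data.

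Alternatives were edgeR 4.0.16 and DESeq2 1.42.0 on the recovered counts, other covariates, centrings, floors and pseudocounts, and leaving out each mouse. Groups came from the labels, and counts of any 2 mice of a group differed by more than sampling noise in a chi-square test. Members and gene lists were chosen with earlier results of these data known. Genes named were, per comparison, the 12 largest called rises and falls, up to 4 called members of each list with the smallest p, and a fixed set of microglial, complement and astrocyte markers (Gfap, C1qa, C1qb, C1qc, Trem2, Cd68, Itgam, Aif1, Tmem119, P2ry12, Cx3cr1 and Csf1r). Other genes, among them those not called, were chosen after their values were seen. Promoters came from RefSeq (GRCm38.p6). Tables were handled in Python 3.11.15 with pandas 2.3.3 and NumPy 2.4.6, and figures drawn with matplotlib 3.10.9. Some genes are not reported here by name, although they count in the totals.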

Additional observations from a re-analysis of the deposited data

Results flagged for a closer look

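In 36 sets of values, from the 18 called genes in 2 groups, 3 held a mouse far from the others of its group, where chance flags about 1 in 20. C1qa was 0 in naive mouse 698, against 2.55 to 6.00 in the other naive mice. Mouse 698 had the fewest total counts of the 13 (230246), and 1 count was worth 2.77 there, more than the lowest of those values. Cd33 was 5.78 in 30-day mouse 708, against 13.5 to 21.4 in the other 30-day mice. Gfap was 146 in naive mouse 713, against 412 to 645 in the other naive mice.

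The change at 30 days against naive differed between PLX5622 and vehicle for Cx3cr1, C1qa and C1qb. The differences were 2.18, 3.05 and 3.29 on the log2 scale (interaction in limma, adjusted p = 0.0398, 0.043 and 0.043). They depend on the settings as given above, and injury and time on the diet cannot be told apart in them.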

How the results depend on the processing

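For 30 days against naive on PLX5622, leaving out 1 mouse gave 10 (without mouse 727) to 23 (without mouse 708) called genes. Setting values under 16 to 16 gave 4, and the rise of Itgam, still called, was 1.21 there. Genes far above the floor, Aqp4 and Clu, lost their calls too, and the cause was not tested. The other settings gave 14 to 19. For the interaction, the count was 1 without a covariate, 1 with extraction batch as covariate, 1 with robust eBayes, 0 with reference-gene centring, 0 with the floor of 16, 0 with a pseudocount of 10, 0 without a trend, and 5 with edgeR and 5 with DESeq2. Without 1 mouse it ran from 0 to 5, and the cause was not tested. For 30 against 7 days on PLX5622, edgeR called 1 and DESeq2 called 1, and leaving out 1 mouse gave 0 to 2. For PLX5622 against vehicle at 30 days it gave 13 to 22.

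Over the 18 called genes, 55 of 234 calls were lost when 1 mouse was left out, and 41 of 233 under the other settings, with 0 reversed among the 16 of them followed through every setting. Within extraction batches, which carry no test, 4 differences lay over 1 SD from the fitted value. These were C1qb (1.95), Cd68 (2.16), Cx3cr1 (4.02) and Tyrobp (2.20) within extraction batch 2, which held 3 injured mice and 1 naive mouse. No paired analysis was possible because mouse numbers are unique to each mouse. Genes such as Slc11a1 and Cd33 rest on few counts per mouse.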

Other observations

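Several immune genes not described above were highest at 30 days in PLX5622 mouse 733. Cybb, the catalytic subunit of the phagocyte oxidase, was 39.5 there, at most 11.1 in the other 30-day mice and at most 7.99 in naive mice. Icam1, an adhesion molecule for leukocytes, was 74.5 in this mouse and 17.3 to 47.6 in the other 30-day mice.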
